A study of Mus musculus with 4 samples.

Results

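Circular RNAs (circRNAs) of 7 genes that write, read or erase histone acetylation were examined in mouse chondrocytes given interleukin-1β (IL-1β). The genes were the acetyltransferases Ep300, Crebbp and Kat6b, the acetyltransferase complex members Ep400 and Brd1, and the deacetylases Hdac2 and Hdac4. A circRNA was counted to a gene when both ends of its back-splice junction lay inside the gene's RefSeq span on mm10, with a tolerance of 1 bp. This gave 90 of the 40909 circRNAs listed, and all 90 lay on 1 strand per gene, with none inside a further annotated gene. Each circRNA, a closed RNA loop, was quantified from reads spanning its junction.

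The IL-1β group held 2 libraries of primary mouse articular chondrocytes exposed for 24 h to recombinant human IL-1β (10 ng/ml), and the control group held 2 libraries whose source label names the same cells without IL-1β. The treatment text on the control samples is the same as on the others, so the source label alone separates the groups. The labels give no strain, age or sex. They leave unsaid whether replicate libraries derive from different cultures or mice, and p-values therefore cover only the spread between the libraries at hand, which may be technical. The cells had been passaged 1 to 3 times and were frozen before use, and linear RNA was digested with RNase R, so the level of the host genes' linear transcripts was not analysed here. The libraries held 895774 and 980542 junction reads with IL-1β, against 1198010 and 1203855 in control. Of 12 chondrocyte marker genes only Sox5, Sox6 and Hapln1 had junction reads, and Acan, Col2a1, Sox9 and the other 6 were listed at 0, which says nothing of their linear RNA. Chondrocyte markers summed to 271 and 323 reads per 1000000 junction reads of the library (CPM, here without further scaling) with IL-1β, against 401 and 230 CPM in control. Fibroblast markers had reads for 4 of 5 genes (Thy1 at 0), with sums of 82.6 and 72.4 CPM after IL-1β, against 135 and 199 CPM in control, and all 4 macrophage and blood markers were at 0. Runx2, the 1 osteoblast marker of 5 with reads, had 375 and 367 CPM after IL-1β, against 267 and 424 CPM in control, and of 4 endothelial markers 1 was read, in IL-1β 1, at 8.93 CPM. The part of cell makeup in the results was not tested, and in bulk samples fewer cells of a type and less RNA per cell cannot be told apart.

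Acetyltransferases add acetyl groups to lysines of histone tails, which loosens chromatin and creates docking sites for bromodomain proteins, and deacetylases remove them. Ep300 and Crebbp encode paralogous coactivators that many transcription factors recruit, NF-κB and the cartilage regulator SOX9 among them. Hdac4 is known in the mouse growth plate as a brake on chondrocyte hypertrophy.

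No sequence of a circle or of a junction is given here. The promoter windows of Ep300 and Crebbp are shown because the summed circle reads of these paralogs lay on opposite sides of control. Neither gene passed the threshold, and most of the Ep300 difference lay in 1 circle. A link between promoters and circle output was not tested. Each window runs from 250 bases before to 50 bases after the annotated transcript start in RefSeq (GRCm38.p6). Capitals mark the GC box GGGCGG on either strand. The Ep300 window is chr15:81585964-81586263 (plus strand) and the Crebbp window chr16:4213355-4213654 (minus strand). The Crebbp gene span used for the circles starts farther upstream, at position 4213957, outside this window. No window at that start was examined.
Ep300: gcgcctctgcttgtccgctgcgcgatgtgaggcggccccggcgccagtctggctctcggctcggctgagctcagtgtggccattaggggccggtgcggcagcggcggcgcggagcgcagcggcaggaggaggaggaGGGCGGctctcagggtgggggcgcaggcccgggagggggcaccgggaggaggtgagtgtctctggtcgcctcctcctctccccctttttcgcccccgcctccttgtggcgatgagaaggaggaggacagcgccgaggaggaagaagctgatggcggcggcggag
Crebbp: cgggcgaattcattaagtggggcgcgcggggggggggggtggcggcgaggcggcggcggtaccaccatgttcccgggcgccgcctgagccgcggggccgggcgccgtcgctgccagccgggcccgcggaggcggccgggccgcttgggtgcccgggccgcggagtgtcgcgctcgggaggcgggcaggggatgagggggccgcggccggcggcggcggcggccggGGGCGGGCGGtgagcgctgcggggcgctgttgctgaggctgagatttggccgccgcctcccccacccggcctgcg
The windows are 72.3% and 82.0% G and C. The GC box occurs 1 time in the Ep300 window and 2 times, overlapping, in the Crebbp window, and 35.9% of the 32544 different windows in the table hold it on either strand. The CCAAT box (CCAAT), the core of the cAMP response element (TGACG) and the NF-κB consensus did not occur on either strand of either window, against 37.4%, 20.9% and 4.53% of all windows. These are matches of letters and not sites.

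Together the 7 genes had 6753 and 7335 junction reads with IL-1β, against 9811 and 11237 in control. As a share of all junction reads this was 0.754% and 0.748% with IL-1β, against 0.819% and 0.933% in control. The log2 ratio of the group means, a description without a test, was -0.22. The groups did not overlap, and without control 2 the log2 ratio was -0.13. Kat6b with 14675 reads and Ep400 with 14790 made up 41.8% and 42.1% of these reads and ranked 28th and 27th of 6929 host genes. The other genes ranked between 350th (Crebbp) and 2170th (Hdac2). Set against the length of the gene span, mean output was 3225 CPM per 100 kb for Ep400 and 1956 for Kat6b, between 439 and 552 for Crebbp, Ep300 and Brd1, 183 for Hdac2 and 34.5 for Hdac4. The other hosts whose profile over the 4 libraries was most like this sum, of 2201 compared, were Racgap1, Tiam2 and Metap1d. Their root mean square differences from it in centred log2(CPM + 1) were 0.0237, 0.0259 and 0.0288.

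None of the 7 genes passed edgeR's quasi-likelihood test with IL-1β at an adjusted p under 0.05, nor did any of 4878 tested hosts (0.0%), and DESeq2 called 0 of the 7 against 0.943% of hosts. At an unadjusted p under 0.05 edgeR had 2 of the 7, Ep300 lower and Crebbp higher, against 4.55% of hosts (2.46% lower and 2.09% higher), and DESeq2 had 3 against 10.7%. In 4 genes every IL-1β library lay below both controls (Ep300, Kat6b, Ep400 and Brd1), against 18.9% of hosts. In 1 gene every IL-1β library lay above both controls (Crebbp), against 16.9%. These 5 of 7 stand against 35.8% of hosts in either direction. The median log2 change of the 7 was -0.20, and that of all tested hosts was -0.03. Scaling by the depth behind the authors' SRPBM moved the median of all hosts to -0.24, and the sign of all 7 genes was kept under that scaling, under RLE factors and under library totals.

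**Figure D1:**
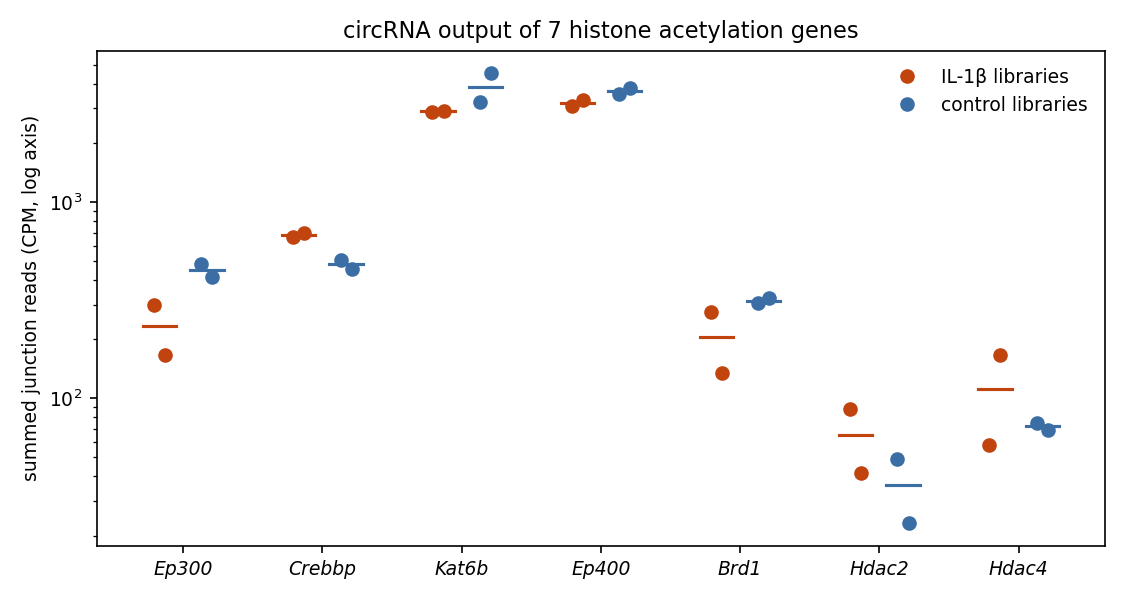
Summed junction reads of each gene in CPM (log axis) for the 2 IL-1β libraries (orange) and the 2 control libraries (blue), with horizontal lines at the group means. Ep300, Kat6b, Ep400 and Brd1 lie lower with IL-1β, Crebbp lies higher, and Hdac2 and Hdac4 overlap.

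Among the acetyltransferases, Ep300 had 274 and 165 reads with IL-1β, against 577 and 486 in control. Both IL-1β libraries lay below both controls, and in CPM the IL-1β libraries differed 1.79-fold from each other. With library totals scaled by TMM factors, as in all CPM values of genes and circles, Ep300 averaged 233 ± 93.5 CPM in IL-1β cells and 449 ± 46.5 CPM in control cells (SD, n = 2 each), 1.93-fold lower, with a log2 change of -0.95 ± 0.32 (SE) and an adjusted p of 0.882 in edgeR. That change was -0.59 without IL-1β 2 and -1.43 without IL-1β 1. Crebbp had 611 and 691 reads with IL-1β, against 604 and 535 in control. Both IL-1β libraries lay above both controls. Crebbp averaged 682 ± 22.5 CPM in IL-1β cells and 482 ± 32.8 CPM in control cells (SD, n = 2 each), a log2 change of 0.50 ± 0.21 (SE) and an adjusted p of 0.882 in edgeR. That change was 0.28 with SRPBM scaling.

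The paralogs were also compared inside each library, which needs no scaling. There were 0.448 and 0.239 Ep300 reads for each Crebbp read with IL-1β, against 0.955 and 0.908 in control. The groups did not overlap, and the mean log2 ratio with IL-1β minus that in control was -1.51, a description without a test. Both IL-1β libraries lay lower for Ep300 and higher for Crebbp, so this separation followed from the choice of the pair. This pair was chosen with the values of both genes known. The Ep300 reads include its leading circle, circRNA.10808, which had 112 and 0 reads with IL-1β, against 298 and 372 in control. Without that circle Ep300 had 162 and 165 reads with IL-1β, against 279 and 114 in control. With those reads the ratio to Crebbp overlaps between groups.

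Most of the Ep300 difference lay in 1 circle. Its leading circle, circRNA.10808 (chr15:81600908-81601545, plus strand), whose ends are 637 bp apart, had 112 and 0 reads with IL-1β, against 298 and 372 in control. It was listed at 0 in IL-1β 2, and IL-1β 1 also lay below both controls. In edgeR it had a log2 change of -2.19 ± 1.43 (SE) and an adjusted p of 0.886, and without IL-1β 2 the log2 change was -1.21. It passed edgeR with a replicate block (adjusted p = 2.93e-09) and with read minimums of 5 (adjusted p = 0.000147) and 1 (adjusted p = 0.000117), and in DESeq2 its adjusted p was 0.998. Over the 13 alternatives run for this circle the adjusted p ranged from 2.93e-09 to 1.00. No other junction in the table lay closer to it than 6828 nt, taken at the farther end. Its upstream end, position 81600908, was used by 5 of the 14 Ep300 circles, with 60.3% of the gene's reads. In IL-1β 2 this end was still read in circRNA.10811 (24 reads) and circRNA.10812 (3 reads), while circRNA.10809 and circRNA.10810 were listed at 0 there. Among all circRNAs with at least 200 reads, 31 of 3100 (1.00%) had 0 reads in exactly 1 library.

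With this circle left out, Ep300 had 162 and 165 reads with IL-1β, against 279 and 114 in control. These groups overlap, and the log2 change was 0.05 ± 0.43 (SE). The second circle of Ep300, circRNA.10816 (chr15:81628293-81628737), had 37 and 74 reads with IL-1β, against 103 and 40 in control. The third, circRNA.10820 (chr15:81639741-81641425), had 43 and 22 reads with IL-1β, against 55 and 32 in control. Both overlap between groups, and their log2 changes were -0.05 ± 0.65 and -0.07 ± 0.72 (SE).

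**Figure D2:**
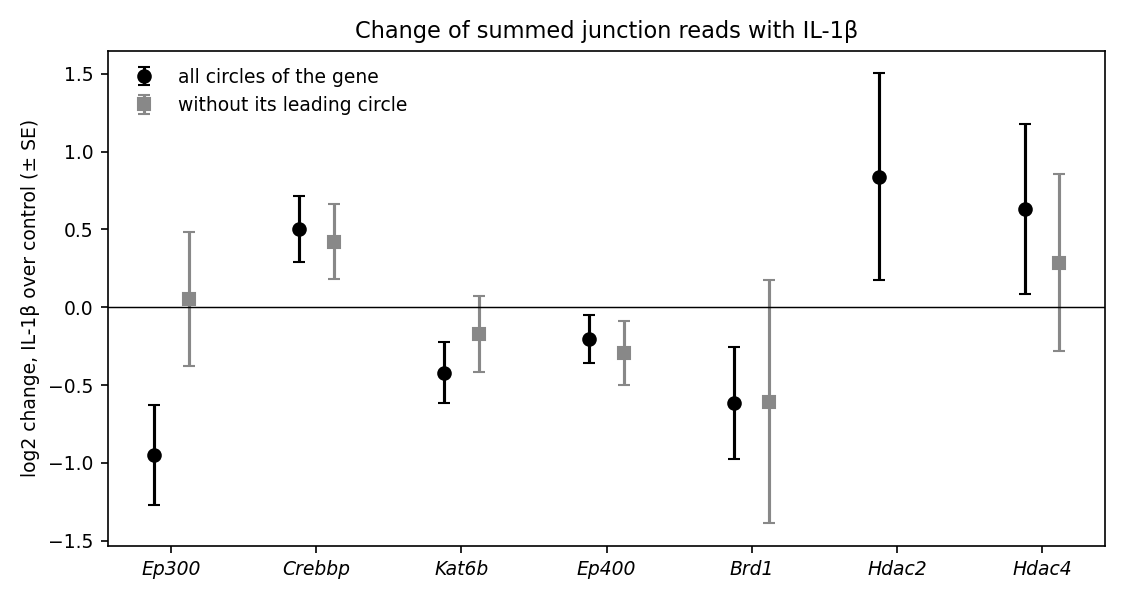
Log2 change of summed junction reads, IL-1β over control, with its standard error from edgeR, for all circles of each gene (black circles) and with the leading circle of each gene left out (grey squares). Ep300 is at -0.95 with all circles and at 0.05 without its leading circle, Crebbp is at 0.50 and 0.42, and Hdac2 has too few other reads to be fitted.

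In Crebbp the higher values lay in several circles, but not in the second most abundant. The downstream end at position 4137366 was used by 3 of the 8 circles, with 55.6% of the gene's reads. The leading circle of Crebbp, circRNA.12135 (minus strand, chr16:4137366-4138985), had 246 and 231 reads with IL-1β, against 204 and 173 in control. The groups did not overlap, and the log2 change was 0.68 ± 0.29 (SE; adjusted p = 0.886 in edgeR). The circle circRNA.12136 (chr16:4137366-4155033), which shares its downstream end, had 97 and 114 reads with IL-1β, against 90 and 52 in control. Its log2 change was 0.90 ± 0.44 (SE; adjusted p = 0.886 in edgeR). Also at this end, circRNA.12137 had 52 and 48 reads with IL-1β, against 51 and 0 in control. Away from it, circRNA.12139 had 71 and 84 with IL-1β, against 39 and 86 in control. In CPM both IL-1β libraries of each lay above both controls, as in 16.4% of all tested circRNAs. The log2 changes were 1.28 ± 1.53 for circRNA.12137, which was listed at 0 in control 2, and 0.66 ± 0.52 for circRNA.12139 (SE). The second most abundant circle, circRNA.12138 (chr16:4154857-4180133), had 145 and 202 reads with IL-1β, against 212 and 224 in control. In CPM its groups overlap, at 183 ± 33.7 in IL-1β cells and 182 ± 1.34 in control cells (SD, n = 2 each). Without the leading circle the log2 change of Crebbp was 0.42 ± 0.24 (SE).

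Kat6b encodes a MYST-family acetyltransferase, also known as MORF, and had 2648 and 2875 reads with IL-1β, against 3857 and 5295 in control. Both IL-1β libraries lay below both controls, and control 2 stood apart from control 1. Kat6b averaged 2897 ± 11.9 CPM in IL-1β cells and 3880 ± 929 CPM in control cells (SD, n = 2 each), a log2 change of -0.42 ± 0.20 (SE; adjusted p = 0.882 in edgeR) that was -0.17 without control 2. A single short circle, circRNA.8628 (chr14:21516626-21517498, plus strand), with ends 872 bp apart, held 89.4% of the gene's reads. It had 2309 and 2565 reads with IL-1β, against 3426 and 4818 in control, and its log2 change was -0.41 ± 0.22 (SE; adjusted p = 0.886 in edgeR). Its share of Kat6b reads was 87.2% and 89.2% with IL-1β, against 88.8% and 91.0% in control, and the widest exact 95% binomial interval, in IL-1β 1, ran between 85.9% and 88.4%. Without it the log2 change of Kat6b was -0.17 ± 0.24.

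The upstream end of that circle, position 21516626, was used by 8 of the 14 Kat6b circles, which together held 94.9% of the reads and reached downstream ends between 872 and 93236 bp away. Among them circRNA.8630 (chr14:21516626-21530365) had 134 and 154 reads with IL-1β, against 141 and 247 in control. Another, circRNA.8632 (chr14:21516626-21535592), had no reads listed with IL-1β, against 4 and 34 in control (adjusted p = 0.886 in edgeR). Of the circles at other ends, circRNA.8637 (chr14:21626719-21637640) was the most abundant, with 151 and 136 reads with IL-1β against 216 and 142 in control. The groups of circRNA.8630 and circRNA.8637 overlap.

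Ep400 encodes an ATPase of the TIP60 acetyltransferase complex that exchanges histone variants. It had 2832 and 3266 reads with IL-1β, against 4256 and 4436 in control. Ep400 averaged 3195 ± 149 CPM in IL-1β cells and 3679 ± 172 CPM in control cells (SD, n = 2 each), which did not overlap, with a log2 change of -0.20 ± 0.16 (SE; adjusted p = 0.956 in edgeR). The upstream end at position 110756766 on chromosome 5 was used by 4 of its 24 circles, with 89.9% of its reads. Of these, circRNA.28547 (minus strand, chr5:110753804-110756766) had 2029 and 2190 reads with IL-1β, against 2919 and 2929 in control. This is 2237 ± 10.2 CPM in IL-1β cells and 2448 ± 71.5 CPM in control cells, and both IL-1β libraries lay below both controls. The circle circRNA.28548 (chr5:110755397-110756766) had 551 and 723 reads with IL-1β, against 773 and 827 in control, which is 673 ± 95.7 CPM in IL-1β cells and 669 ± 10.8 CPM in control cells (SD, n = 2 each).

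The circle with the lowest unadjusted p of the 40 tested lay at the other end of Ep400. For circRNA.28529 (chr5:110673109-110676938), whose upstream end is 93989 bp from the start of the gene span, there were 124 and 180 reads with IL-1β, against 319 and 428 in control. Both IL-1β libraries lay below both controls, at 160 ± 34.1 CPM in IL-1β cells and 312 ± 54.6 CPM in control cells (SD, n = 2 each), with a log2 change of -0.96 ± 0.31 (SE), an unadjusted p of 0.0200 and an adjusted p of 0.886 in edgeR, which ranged from 0.105 to 1.00 over the alternatives. A neighbouring junction that shares its upstream end and lies 18 nt away at the other, circRNA.28527, was listed at 0 with IL-1β and had 10 and 0 reads in control.

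Brd1 encodes a bromodomain scaffold protein of MYST acetyltransferase complexes. It had 254 and 133 reads with IL-1β, against 368 and 377 in control. Brd1 averaged 206 ± 101 CPM in IL-1β cells and 315 ± 10.9 CPM in control cells (SD, n = 2 each), a log2 change of -0.62 ± 0.36 (SE; adjusted p = 0.882 in edgeR), and the IL-1β libraries differed 2.06-fold in CPM from each other. The log2 change was -0.18 without IL-1β 2 and -1.23 without IL-1β 1. Its leading circle circRNA.10981 (chr15:88707034-88717062, minus strand) held 84.0% of its reads, with 208 and 117 reads with IL-1β against 327 and 299 in control. The second, circRNA.10976 (chr15:88689509-88691884), had 39 and 16 reads with IL-1β against 39 and 46 in control. The third, circRNA.10979, had no reads listed with IL-1β, against 2 and 12 in control.

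The deacetylases had the fewest junction reads of the 7 genes. Hdac2, a class I enzyme of the SIN3, NuRD and CoREST complexes, had 81 and 41 reads with IL-1β, against 59 and 27 in control. The groups overlap, and the log2 change was 0.84 ± 0.67 (SE; adjusted p = 0.971 in edgeR). That change was 0.19 without IL-1β 1, 1.29 without IL-1β 2, 1.53 without control 1 and 0.38 without control 2. It had 2 circles with a shared upstream end, and circRNA.831 (chr10:36985127-36989288, plus strand) held 96.6% of the reads. The other, circRNA.832, had 7 reads in control 2 and none elsewhere.

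Hdac4, a class IIa enzyme that shuttles between cytoplasm and nucleus, had 53 and 164 reads with IL-1β, against 90 and 81 in control. The IL-1β libraries lay on both sides of the controls, and the log2 change was 0.63 ± 0.55 (SE; adjusted p = 0.996 in edgeR), or -0.32 without IL-1β 2 and 1.20 without IL-1β 1. These reads were spread over 21 circles, none of them read in all 4 libraries and 14 of them in 1 library only. The upstream end at position 92148494 on chromosome 1 was used by 7 of the 21 circles with 71.1% of the reads. Its leading circle circRNA.20355 (chr1:92029955-92148494, minus strand), with ends 118539 bp apart, had 13 and 50 reads with IL-1β, against 17 and 0 in control. For circRNA.20361 there were 0 and 34 reads with IL-1β against 15 and 15 in control, and for circRNA.20360 0 and 17 with IL-1β against 37 and 0 in control. The circle circRNA.20359 (chr1:92133344-92148494) had 12 and 19 reads with IL-1β and was listed at 0 in both controls (adjusted p = 0.886 in edgeR).

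**Figure D3:**
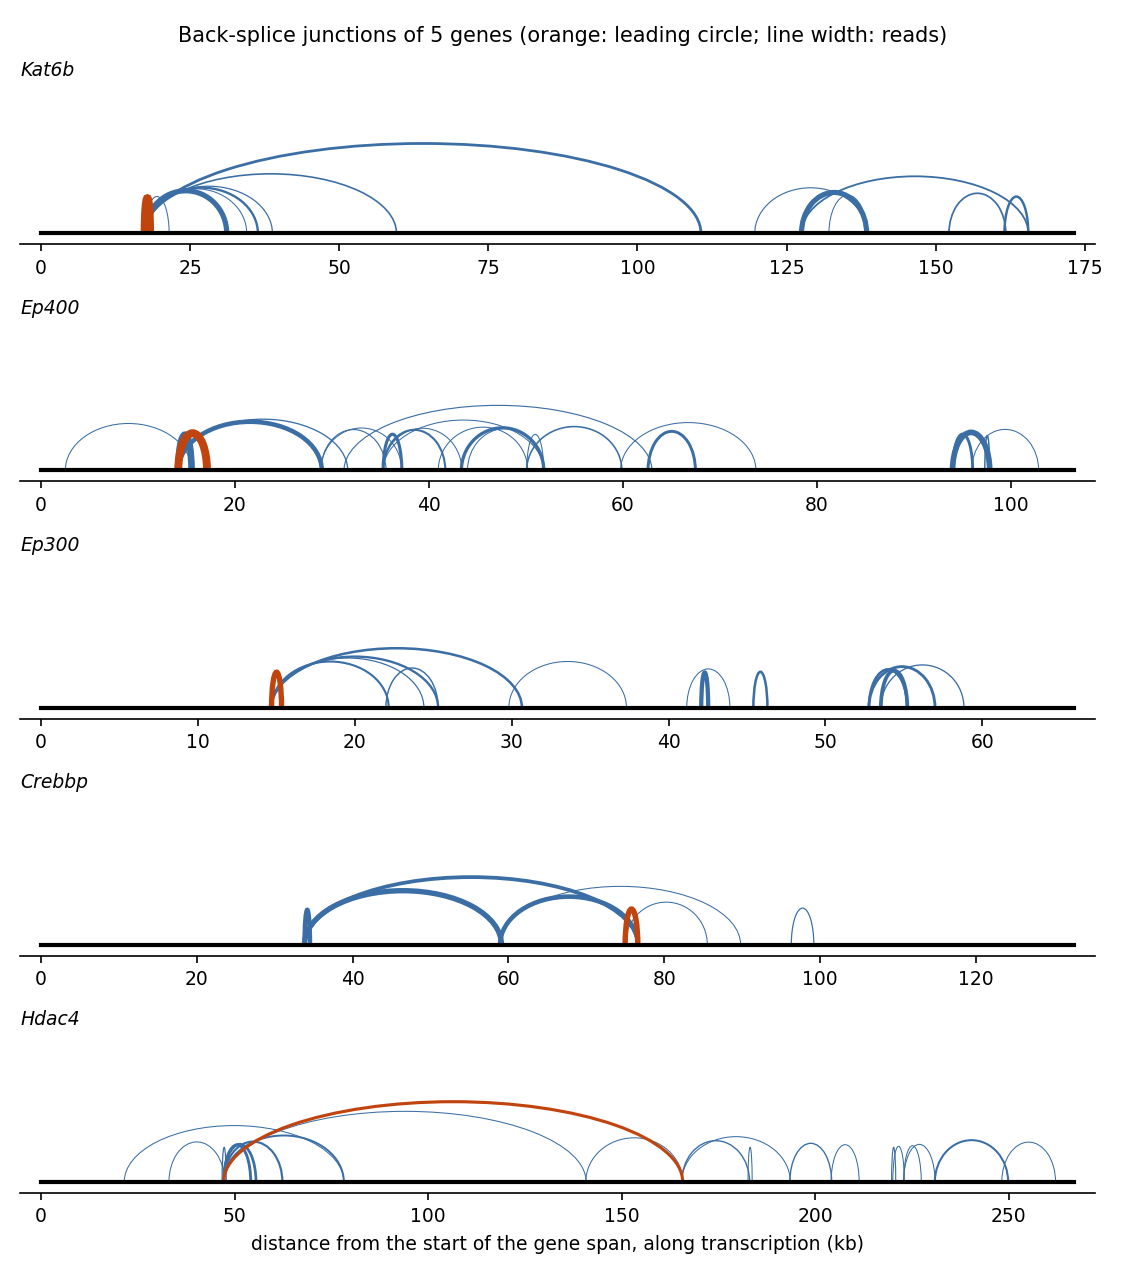
Back-splice junctions of Kat6b, Ep400, Ep300, Crebbp and Hdac4, each drawn as an arc between its ends, against the distance from the start of the gene span along transcription in kb. Line width grows with the log of the reads over 4 libraries, arc height with the distance between ends, and orange marks the leading circle. In Kat6b, 8 arcs leave 1 upstream end, and in Hdac4 7 do.

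Leading circles differed in how much of their gene they held. The share over all libraries was 96.6% in Hdac2, 89.4% in Kat6b, 84.0% in Brd1, 68.1% in Ep400, 52.1% in Ep300, 35.0% in Crebbp and 20.6% in Hdac4. Across 2208 hosts with at least 200 reads the median share was 54.9%, with quartiles at 37.8% and 77.1%. In Ep300 the share of the leading circle was 40.9% (exact 95% interval 35.0% to 47.0%) and 0% with IL-1β, against 51.6% (47.5% to 55.8%) and 76.5% (72.5% to 80.2%) in control. The shares of the libraries within each group lay far apart. These intervals treat each read as a separate molecule and cover counting error only, and with PCR copies among the reads they would be too narrow. As a percentage of the gene span from its start, the upstream end of the leading circle lay early in Kat6b (10.0%), Ep400 (13.3%), Hdac4 (17.7%) and Ep300 (22.3%), and farther along in Brd1 (36.4%), Hdac2 (39.3%) and Crebbp (56.5%).

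**Figure D4:**
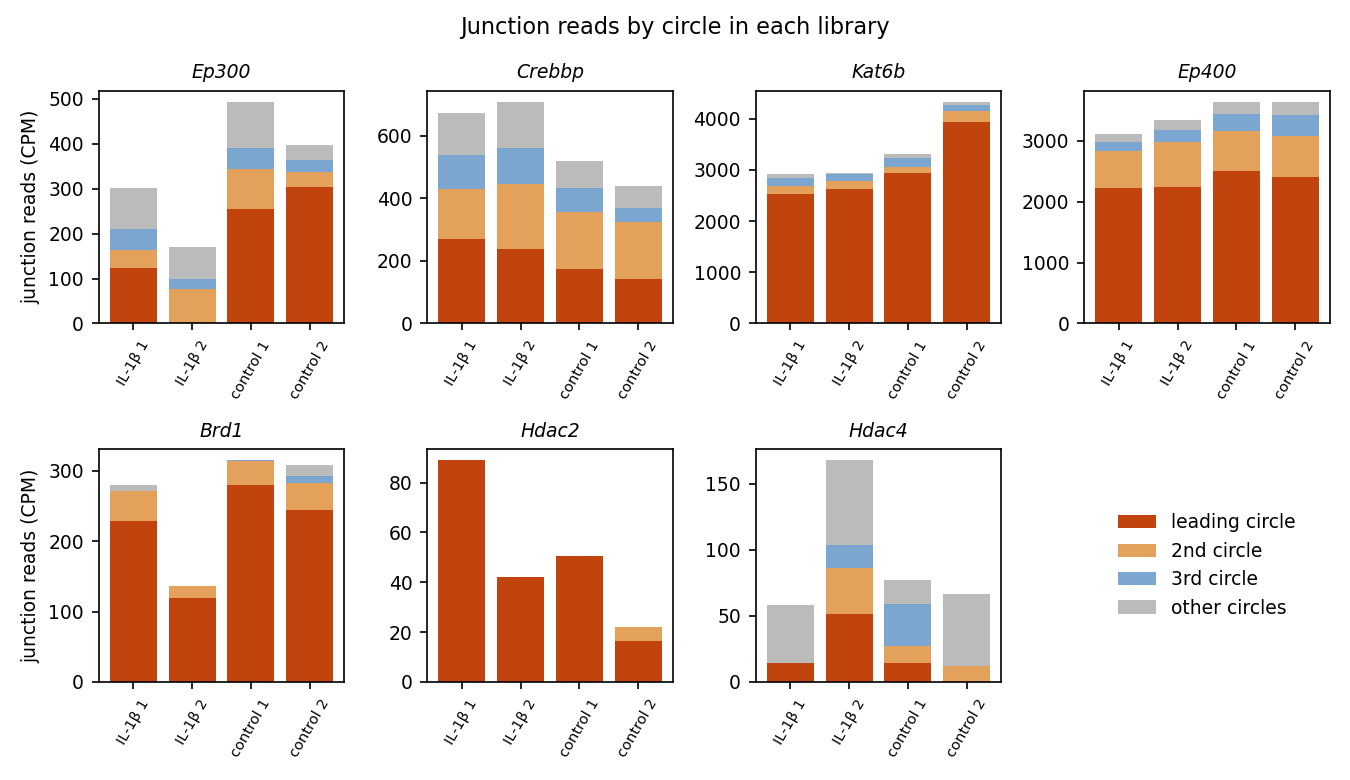
Stacked junction reads in CPM of the leading, 2nd, 3rd and other circles of each gene in each of the 4 libraries, IL-1β at the left. The leading circle of Ep300 is listed at 0 in IL-1β 2, and the leading circle fills most of each Kat6b bar.

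Of the 90 circles, 38 and 48 were read with IL-1β, against 50 and 48 in control. The counts overlap, and they were the same after thinning each library to 895774 reads, the total of IL-1β 1. The smallest value above 0 of these circles was 2, so thinning could drop few of them. The part of depth before deposit was not tested. There were 21 circles (23.3%) read in all 4 libraries, with 94.1% of the reads, and 47 (52.2%) read in 1 library only, with 1.09%. Over the whole table these shares of circles were 16.8% and 58.6%. Circles read in both IL-1β libraries and neither control numbered 3, and circles read in both controls and neither IL-1β library also numbered 3. Each is 3.33% of the 90, against 2.45% and 2.72% of the whole table. Only 7 of the 75588 values above 0 in the table are a single read, so a 0 can stand for a circle below a minimum set before deposit, and no upper limit is given for it.

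A filter of at least 20 reads over the libraries kept 40 of the 90 circles. None of these passed edgeR at an adjusted p under 0.05, against 0.0196% of 15333 circRNAs, and DESeq2 called 0 against 0.659%. At an unadjusted p under 0.05 edgeR had 1 of the 40, circRNA.28529, which was lower, against 3.44% (1.62% lower and 1.83% higher), and DESeq2 had 6 against 8.99%. In 6 of the 40 every IL-1β library lay above both controls and in 9 every IL-1β library lay below, against 16.4% and 17.2% of circRNAs. The filter keeps a circle that was read in 1 group only, so these counts are a description.

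Other genes of the pathway were taken from 5 lists of acetyltransferases, deacetylases, their complex subunits and acetyl-lysine readers. Of their 131 genes, 108 had a circle and 85 were tested. None passed edgeR's test, and none had an unadjusted p under 0.05 (4.55% of all tested hosts), while DESeq2 called 0 (0.943% of all hosts) and had 4 of 85 at an unadjusted p under 0.05 (10.7% of all hosts). There were 40 positive and 45 negative log2 changes with a median of -0.06. Values were higher with IL-1β in every library for 18 of the 85 (16.9% of all hosts) and lower for 14 (18.9%).

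Of 12 tested acetyltransferases 5 had positive and 7 negative log2 changes. Reads of list genes are given unscaled, and both IL-1β libraries held fewer junction reads in all than the controls. The steroid receptor coactivator gene Ncoa3 had 16 and 28 reads with IL-1β, against 77 and 43 in control, and its relative Ncoa2, the most abundant of the list, had 422 and 619 against 703 and 473. Their log2 changes were -1.14 ± 0.75 and 0.13 ± 0.27 (SE), and Ncoa2 overlaps between groups. The transcription factor gene Atf2 had 349 and 311 reads with IL-1β, against 370 and 275 in control, and Kat8, the acetyltransferase of the MSL and NSL complexes, had 22 and 38 against 21 and 0. In CPM both genes lay higher in both IL-1β libraries, with log2 changes of 0.35 ± 0.27 and 1.82 ± 1.67 (SE). Of 23 tested acetyltransferase complex subunits 8 were positive and 15 negative. Jade1, a scaffold of the KAT7 complex, had 218 and 216 reads with IL-1β, against 341 and 479 in control (log2 change -0.61 ± 0.28, SE; adjusted p = 0.882 in edgeR). The SAGA subunit gene Supt3 had 182 and 234 reads with IL-1β against 337 and 353 in control, the NSL scaffold gene Kansl1 968 and 967 against 1434 and 1371, and Brd8, of the TIP60 complex, 0 and 0 against 0 and 25. Kansl1 was at 1056 and 977 CPM with IL-1β, against 1198 and 1175 CPM in control, a log2 change of -0.22 ± 0.19 (SE).

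Of 6 other tested deacetylases 2 were positive and 4 negative, on 441 reads in all. The mitochondrial deacetylase gene Sirt3 had no reads listed with IL-1β, against 18 and 9 in control. Sirt2 had 0 and 8 reads with IL-1β against 30 and 6 in control, Hdac7 8 and 0 against 4 and 31, and Hdac8 30 and 82 against 47 and 80. Of 23 tested deacetylase complex subunits 14 were positive and 9 negative. The methyl-CpG-binding NuRD subunit gene Mbd2 had 133 and 178 reads with IL-1β, against 118 and 127 in control, and the NuRD subunit gene Mta3 had 74 and 38 against 29 and 37. Mier1 had no reads listed with IL-1β, against 7 and 13 in control, and the corepressor gene Ncor1 had 721 and 582 with IL-1β against 901 and 756 in control. Scaled to depth, Ncor1 was at 787 and 588 CPM with IL-1β, against 753 and 648 CPM in control. These groups overlap, and the log2 change was -0.03 ± 0.23 (SE).

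Of 21 tested acetyl-lysine readers 11 were positive and 10 negative. Zmynd8, a bromodomain corepressor and the most abundant of the list, had 751 and 787 reads with IL-1β, against 1220 and 1391 in control. Its log2 change was -0.45 ± 0.20 (SE; adjusted p = 0.882 in edgeR). Trim33 had 313 and 435 reads with IL-1β against 351 and 299 in control, and Pbrm1, a subunit of the PBAF chromatin remodeller, had 161 and 156 against 140 and 112. In CPM neither overlaps between groups, and their log2 changes were 0.51 ± 0.26 and 0.65 ± 0.34 (SE; adjusted p = 0.882 for each in edgeR).

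**Figure D5:**
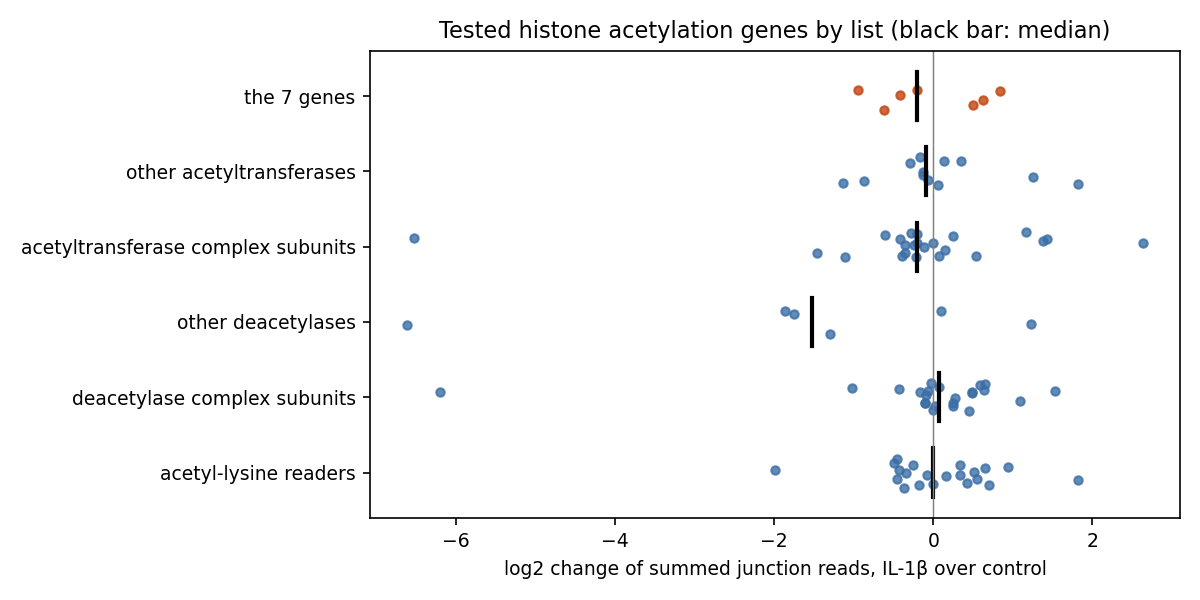
Log2 change of summed junction reads, IL-1β over control, for each tested gene of the 7 and of the 5 other lists, with vertical offsets for visibility and black bars at list medians. Most points lie near 0, and points below -6 are genes listed at 0 in both IL-1β libraries, whose fitted values depend on the prior count.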

How the data were processed

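Back-splice junction reads of each circRNA were deposited by the authors as whole-number counts. Their tables also hold SRPBM, a signal that the authors scaled to depth, and in each library it equals the count over 1 constant. Ribosomal RNA removal, RNase R digestion and strand-specific libraries are stated in the labels' protocols, and the submitters' processing notes name Bowtie2 and mm10. The caller, any read minimum and duplicate handling: not given in the sources used here. Gene spans and promoter windows are RefSeq's (GRCm38.p6).

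Circles of the table were given a host when both ends lay in 1 of the 7 genes, otherwise in exactly 1 coding gene or, failing that, 1 other gene. All circRNAs, or host sums, with at least 20 reads were fitted together in edgeR 4.0.16 under R 4.3.3 (quasi-likelihood test without covariates, TMM factors) with Benjamini-Hochberg adjustment over all tested at 0.05. The SE was taken as |log2 change| over √F, and CPM of genes and circles uses TMM-scaled library totals, while that of marker sums uses plain library totals. Named circRNAs are the 3 most abundant of each gene and the 3 with the lowest p in each direction, and named list genes are the 3 with the lowest p and the most abundant of each list; other named circles were chosen after their values were seen. Members and lists were chosen with earlier results of these data known. The tests were also run on simulated counts, drawn with the fitted dispersion and without a read minimum, and no result here rests on them. Alternatives were DESeq2 1.42.0, other scalings and read minimums, a replicate block, each library left out, junctions within 5 nt summed, a stricter host rule, thinning and, chosen after seeing the data, host sums without each leading circle. Python 3.11.15 with scipy 1.17.1 was used otherwise.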

Additional observations from a re-analysis of the deposited data

How the results depend on the processing

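No alternative brought any of the 7 genes or the named genes of the other lists past an adjusted p of 0.05. Not every alternative could do so for the list genes with few reads. DESeq2 gave no adjusted p for Brd8, Sirt3 and Mier1. These genes, Sirt2 and Hdac7 were not fitted at a minimum of 50 reads, nor in every fit with a control library left out. Among the 90 circles the count past an adjusted p of 0.05 was 0. It became 1 (circRNA.10808 of Ep300, listed at 0 in IL-1β 2) with read minimums of 5 and 1 and with the replicate block. The difference between the libraries of a group was not correlated between groups (correlation -0.03 over 3100 circRNAs and 0.03 over 2208 hosts). Whether same-numbered libraries share a culture or batch is not given, and these correlations cannot show it. The block took hosts past the threshold from 0 to 21 and circRNAs from 3 to 61. DESeq2 gave 46 hosts and 101 circRNAs, read minimums of 1 and 5 gave 12 and 14 hosts and 61 and 63 circRNAs, and summing junctions within 5 nt or a minimum of 50 reads gave 0 circRNAs. The log2 ratio of the summed reads of the 7 genes was -0.46 with SRPBM depth and -0.31 to -0.13 with 1 library left out. The sign of 1 of the 7 genes, Ep300, turned without its leading circle (0.054). With 1 library left out the log2 change was -0.32 to 1.20 for Hdac4, -0.13 to 0.46 for Ncoa2, -0.72 to 0.62 for Hdac8, -0.25 to 0.17 for Ncor1, -0.59 to 0.80 for circRNA.10816, -0.71 to 0.38 for circRNA.10820, -1.13 to 0.25 for circRNA.10976, -0.22 to 0.16 for circRNA.12138, -7.12 to 0.14 for circRNA.20360, -6.81 to 1.44 for circRNA.20361, -0.17 to 0.13 for circRNA.28548, -0.43 to 0.34 for circRNA.8630 and -0.28 to 0.36 for circRNA.8637. With SRPBM depth the sign also turned for Ncoa2 (-0.12), Hdac8 (-0.052), circRNA.12138 (-0.23), circRNA.28548 (-0.22) and circRNA.8637 (-0.25), with library totals for Ncor1 (0.019), and with the replicate block for circRNA.12138 (-0.0053), circRNA.10816 (0.045) and circRNA.20361 (-1.50). The causes were not tested, and no value with a turned sign passed the threshold. With 2 libraries a group, values that differ between libraries of a group as in Hdac4 or the leading Ep300 circle limit what can be told.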
